A study of Bos taurus with 6 samples.

Results

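The genes described here keep the ATP and oxygen supply of a working muscle fibre level: CKM, CKMT2, CKB, AK1, AMPD1 and MB. Probe sets, the groups of short probes that each report 1 transcript, were taken where the array's gene annotation gave 1 symbol and it was 1 of these 6. This gave 7 of the 24128 probe sets, for 5 of the 6 genes: a pair each for CKM and CKMT2, and 1 each for CKB, AK1 and MB. No probe set carried AMPD1 as its single symbol, so this gene was not analysed here. The CKB probe set was not called present on any array, which left 6 probe sets of 4 genes to be tested.

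The material was longissimus dorsi, the long muscle of the loin, of 18 male cattle of the Chinese Red Steppe breed, kept on a standard diet with no treatment. There were 9 bulls aged 1 month and 9 aged 24 months, and total RNA of 3 bulls went into each pool, which gives n = 3 pools at each age. Calf pools carry the numbers 1, 2 and 3 and pools of grown bulls the numbers 2, 3 and 4, and each was hybridised to its own Affymetrix bovine array. A pool averages its bulls, so the spread between single animals was not measured. The comparison asks which of these genes stand at another level in loin muscle of grown bulls than in that of calves.

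A contracting fibre would use up its ATP within seconds if nothing refilled it. Creatine kinases move a phosphate between ATP and creatine, and phosphocreatine serves as the store from which ATP is rebuilt. CKM encodes the enzyme of the muscle cytosol, CKMT2 the form between the mitochondrial membranes of striated muscle, and CKB the form best known from brain and smooth muscle. AK1, adenylate kinase of the cytosol, makes ATP and AMP from a pair of ADP molecules, and AMPD1 removes that AMP by deamination to IMP, the first step of the purine nucleotide cycle. MB encodes myoglobin, which binds oxygen in the fibre and is known to be abundant in slow, oxidative muscle.

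Values are intensities on a linear scale, as normalized across arrays and deposited by the authors. Changes are on the scale log2(intensity + 16), as 24 months minus 1 month, with the standard error of the limma fit after ±, and a change was called at a Benjamini-Hochberg adjusted p under 0.05 over 13204 probe sets. Median intensities were 69.4 to 71.2 per array and the brightest probe set of each array stood at 12772 to 13290. Pools of the same age correlated at 0.903 to 0.934 at 1 month and at 0.985 to 0.989 at 24 months (across tested probe sets, log2), so the 1-month pools were the more varied. The log2 ratio of 3' to 5' actin signal, a sign of RNA quality, was 0.46 to 0.85 at 1 month and 0.22 to 0.26 at 24 months, and a fit that holds it as a covariate was run. Since the ages did not overlap in this ratio, that fit cannot part RNA quality from age, whether a call is kept or lost in it. In the second deposited table the same ratio was -0.30 to -0.17 at 1 month and -0.26 to -0.16 at 24 months, so that the ages overlapped there.

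Myoglobin was the 1 member that rose. Of the 6 tested probe sets 1 was called as a rise, or 16.7%, against a background of 14.0% of all tested probe sets called as rises, so that the members' share lay near that of all probe sets. No member was called as a fall by limma, and none was lower at an unadjusted p under 0.05, where 3 were higher. The share of all probe sets at that unadjusted threshold was not counted, so these 3 have no background to be read against. The background of falls was 4.99%, and of calls in either direction 19.0%. Of the called probe sets 73.8% were rises, and in the second table that the authors deposited this share was 61.3% after quantile normalization and 56.3% without it. All 3 pools of 24 months lay above all 3 of 1 month for 5 of the 6 member probe sets, while 27.2% of all tested probe sets did so. The median change of the members was 0.32, beside 0.06 over all tested probe sets. In the second table that ordering held for MB, and for AK1 only after quantile normalization. The brighter CKM probe set lay the other way round there, and CKMT2 overlapped.

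**Figure D1:**
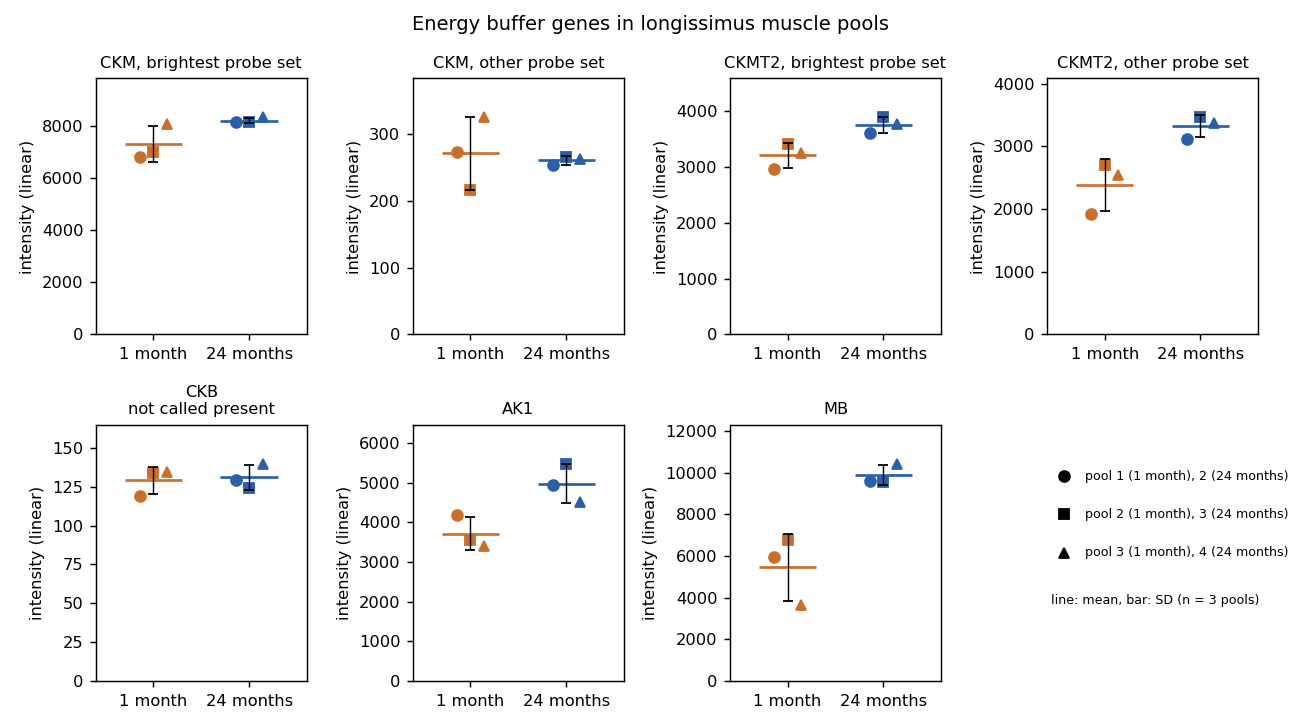
Intensity (linear scale, from 0) of the 7 probe sets in the 3 pools of each age, with the mean as a line and the SD as a bar. MB separates the ages, from 3661 to 6756 at 1 month and from 9575 to 10427 at 24 months, while CKB lies between 119 and 140 in every pool without a present call.

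MB read 5963, 6756 and 3661 in pools 1, 2 and 3 at 1 month and 9621, 9575 and 10427 in pools 2, 3 and 4 at 24 months. Every pool of grown bulls lay above every pool of calves, and pool 3 was the lowest of the calves by a wide margin. The mean intensity was 5460 ± 1608 (SD, n = 3) at 1 month and 9874 ± 479 (SD, n = 3) at 24 months. MB rose by 0.90 ± 0.23 on the log2 scale, a 1.86-fold change with a 95% interval of 1.27 to 2.73 (limma adjusted p = 0.0392). The coefficient of variation between pools was 29.4% at 1 month and 4.85% at 24 months.

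The size of the MB change depended on that low calf pool. Without 1-month pool 3 the change was 0.64 ± 0.13 with a smaller adjusted p of 0.0165, and without 1-month pool 1 or 2 it was 0.99 and 1.08 (limma adjusted p = 0.0457 and 0.0329). The fit without 1-month pool 3 called 3476 probe sets, more than the main fit. The MB call was lost without 24-month pool 2, 3 or 4, at changes of 0.92, 0.92 and 0.86 (limma adjusted p = 0.12, 0.125 and 0.137). Those fits called 526 to 689 of 13204 probe sets, against 2513 in the main fit. The MB call was also lost with quantile normalization (0.79, adjusted p = 0.0722), where 2367 probe sets were called. In the second deposited table it was lost too (0.91, adjusted p = 0.0942, where 12.4% of all probe sets were called). With the actin ratio, which did not overlap between the ages, as a covariate the change was 1.71 ± 0.34 and stayed called (limma adjusted p = 0.0395). MB was higher at 24 months under all 17 alternatives.

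In the second table MB read 6212, 7685 and 3298 at 1 month and 10640, 9937 and 9667 at 24 months. Calf pool 3 was again the lowest, and the ages did not overlap.

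Slow fibre genes moved with MB between the ages, but not within the calves. MYH7, the slow myosin heavy chain, read 3755, 4272 and 3778 in the calf pools and 8901, 8138 and 8796 in those of grown bulls. TNNT1, slow troponin T, read 4418, 5009 and 4538 against 8287, 8019 and 8457. Neither was low in 1-month pool 3 in the way MB was. Rises were not confined to slow fibre genes. Of 8 tested fibre markers 4 were called as rises, where 11.3% of all genes were. Among them were TNNT3, fast troponin T, at 0.48 ± 0.13 (limma adjusted p = 0.0459), and PYGM at 0.81 ± 0.15 (limma adjusted p = 0.0139). HBB, the beta chain of haemoglobin and a mark of blood in the tissue, read 2403, 2405 and 132 at 1 month, and 29.0, 30.9 and 29.7 at 24 months without a present call. HBB was thus also low in the calf pool with the lowest MB, while across ages HBB and MB ran in opposite directions. Whether HBB signal measures blood content alike at both ages was not tested. The part of fibre type and of blood content in the MB values was not tested, and in a tissue sample more fibres of a type and more RNA per fibre cannot be told apart.

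**Figure D2:**
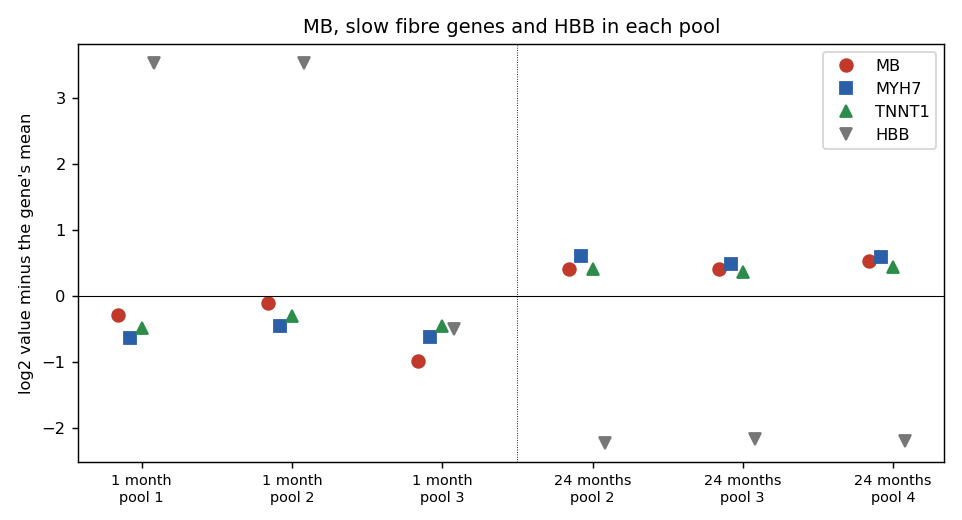
Log2 values of MB, MYH7, TNNT1 and HBB in each pool, each minus the gene's own mean over the 6 pools (the vertical dotted line parts the ages). MB, MYH7 and TNNT1 stand above 0 in the 3 pools of 24 months, and 1-month pool 3 is low for MB but not for MYH7 or TNNT1 relative to the other calf pools.

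AK1 stood higher in grown bulls without passing the test. It read 4188, 3564 and 3403 in pools 1, 2 and 3 at 1 month and 4948, 5477 and 4506 in pools 2, 3 and 4 at 24 months. The ages did not overlap, and the highest calf pool lay closest to the lowest pool of grown bulls. The means were 3718 ± 414 and 4977 ± 486 (SD, n = 3), and the change was 0.42 ± 0.14, or 1.34-fold with a 95% interval of 1.06 to 1.69 before adjustment (limma adjusted p = 0.0833). AK1 was called without 1-month pool 1 (0.51, adjusted p = 0.0492) and with limma's trended and robust variance (0.42, adjusted p = 0.0470). With another pool left out its limma adjusted p reached 0.260. The second table gave 0.49 ± 0.19 after quantile normalization, with no overlap of the ages (limma adjusted p = 0.128), and 0.14 ± 0.21 without it (limma adjusted p = 0.7). With the actin covariate the change was 0.70 ± 0.27 (limma adjusted p = 0.153).

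CKMT2, the mitochondrial creatine kinase, was measured by a pair of probe sets that differed in size of change. The brighter, whose name marks probes shared by several transcripts of the gene, read 2965, 3400 and 3245 at 1 month and 3600, 3877 and 3767 at 24 months. Its groups did not overlap, and its change was 0.23 ± 0.12, or 1.17-fold with an interval of 0.961 to 1.43 (limma adjusted p = 0.221). The dimmer read 1917, 2704 and 2541 at 1 month and 3122, 3462 and 3382 at 24 months. Calf pool 1 was the lowest on both. The dimmer probe set gave 0.49 ± 0.16, or 1.40-fold (limma adjusted p = 0.0788). The within-array gap between both probe sets shifted by 0.26 with age, with an exact two-sided permutation p of 0.1, the smallest that 3 against 3 pools allow.

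The direction of CKMT2 was not settled by the deposited values. In the second table its brighter probe set read 2297, 4514 and 3326 at 1 month and 2535, 2455 and 2610 at 24 months. Calf pools spanned both sides of the grown bulls there, and the change was -0.14 ± 0.22 after quantile normalization and -0.36 ± 0.27 without it (limma adjusted p = 0.713 and 0.418). The dimmer gave 0.15 and -0.09. With the actin covariate the changes fell to 0.09 ± 0.23 and 0.08 ± 0.29.

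CKM, the cytosolic creatine kinase of muscle, differed little in level. Its brighter probe set read 6803, 6973 and 8078 in the calf pools and 8129, 8143 and 8310 in those of grown bulls. The groups did not overlap, but calf pool 3 lay close below the older pools, and the 24-month pools were tightly grouped, with a coefficient of variation of 1.23% against 9.50%. The change was 0.17 ± 0.12, with a 95% interval from 0.920- to 1.38-fold (limma adjusted p = 0.356). CKM stood at 52.8% to 63.5% of the highest signal of its array and MB at 27.9% to 78.5%, and whether signal near the top of the scale is compressed was not tested.

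The dimmer CKM probe set read 272, 215 and 324 at 1 month and 253, 265 and 262 at 24 months, with the older pools inside the range of the calves. Its change was -0.04 ± 0.16 (limma adjusted p = 0.894), and without 1-month pool 3 it was 0.10. In the second table the brighter probe set read 7046, 8071 and 8259 at 1 month and 6939, 6108 and 7042 at 24 months, so that every older pool lay below every calf pool. After quantile normalization of that table the change was -0.15 ± 0.17 (limma adjusted p = 0.581). With the actin covariate it was -0.10 ± 0.22, also below 0.

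**Figure D3:**
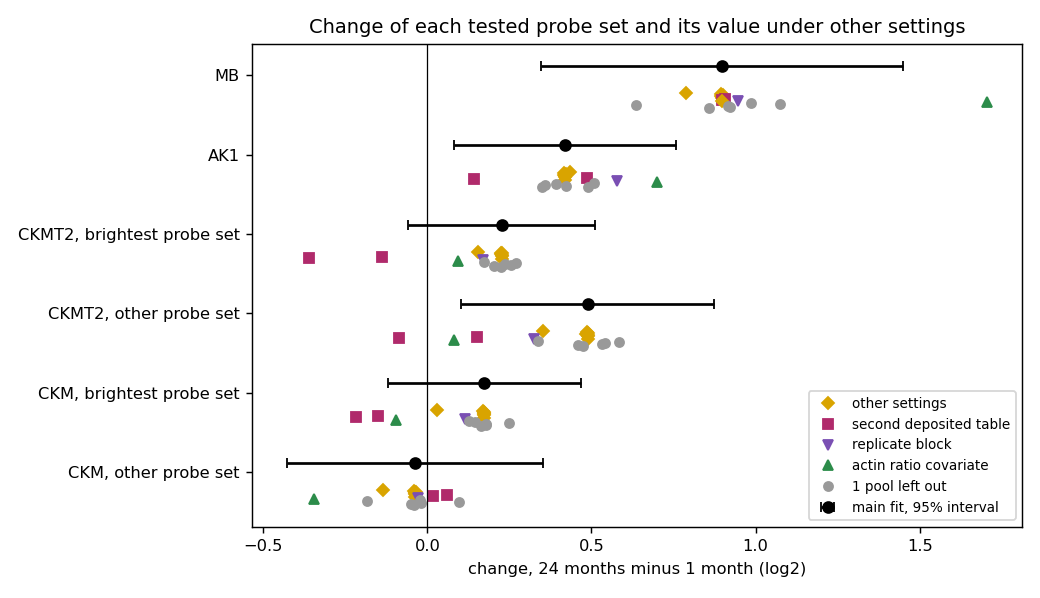
Change from 1 to 24 months (log2) of the 6 tested probe sets, as the black point with its 95% interval, and as coloured points under other settings. All points of MB and AK1 lie above 0, while CKM and CKMT2 fall on both sides, with the second deposited table at -0.22 and -0.36 for their brighter probe sets.

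CKB was not called present. Its probe set read 119, 134 and 134 at 1 month and 129, 124 and 140 at 24 months, and it was called absent on all 6 arrays. The detection p-values deposited for the calf pools were 0.274, 0.334 and 0.5. The ages overlapped, and no fold is given since the probe set was not called present at either age. In the second table CKB read 24.4 to 41.4 at 1 month and 44.2 to 55.8 at 24 months, so that the ages did not overlap there, and no change was tested.

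The members were also set against CKM within each array, which shows only whether changes were unequal. Of 3 such differences, that of MB was the largest: MB gained 0.73 on CKM with age and its groups did not overlap (exact two-sided permutation p = 0.1, the smallest possible, and 0.3 adjusted over the 3). AK1 gained 0.25 on CKM (exact permutation p = 0.3, adjusted p = 0.45) and CKMT2 0.05 (exact permutation p = 0.6, adjusted p = 0.6), and their groups overlapped. With 3 pools per age no such difference could pass, so unequal change among the members was not shown.

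The tissue check found 8 of 8 measured markers of skeletal muscle fibre present at both ages, including the actin ACTA1 and the intermediate filament gene DES. Summed over these markers, intensity was 52198 to 54917 at 1 month and 71222 to 71746 at 24 months, so fibre signal as a whole moved in the same direction as MB and AK1. ACTA1 itself gave -0.01 ± 0.11. Fibroblast and smooth muscle signal stood out in single calf pools. The fibroblast sum was 23751 in 1-month pool 1 and 5593 to 8137 in the other pools. All 6 measured fibroblast markers were present at 1 month and 5 at 24 months. The smooth muscle sum was 3956 in 1-month pool 3 and 1451 to 2027 elsewhere, with 6 of 6 markers present at both ages. Endothelial markers summed to 756 to 1033 at 1 month and 552 to 578 at 24 months (3 of 5 present at each age, VWF and KDR on no array). Adipocyte markers summed to 303 to 2699 and 995 to 1390 (3 of 6 present at 1 month and 5 at 24 months, LEP on no array), leukocyte markers to 730 to 1475 and 631 to 684 (6 of 7 at each age, CSF1R on no array), red cell markers to 360 to 4330 and 174 to 206 (3 of 4 at 1 month and 1 at 24 months, ALAS2 on no array), and those of nerve and glia to 561 to 1128 and 935 to 1036 (1 of 4 at 1 month and 2 at 24 months, GFAP and NEFL on no array). The endothelial, leukocyte and red cell sums were thus lower in every 24-month pool than in any calf pool. Falls were called for 2 of 3 tested endothelial, 2 of 6 leukocyte and 1 of 2 red cell genes. Rises were called for 2 of 4 adipocyte genes. Of all genes, 5.73% were called as falls and 11.3% as rises. The part of these cell types in the members' values was not tested.

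Genes around the energy buffer were read on the brightest tested probe set of each gene, where 11.3% of 6423 genes were called as rises and 5.73% as falls, and the median change was 0.03. The share of all genes at an unadjusted p under 0.05 was not counted, so list counts at that threshold have no background. Of the genes that supply creatine, 3 were tested, 1 rose and none fell (1 higher and none lower at an unadjusted p under 0.05), with a median of 0.43. SLC6A8, the creatine transporter of the cell membrane, read 196, 229 and 199 at 1 month and 497, 557 and 442 at 24 months, with no overlap. It rose by 1.20 ± 0.14 (limma adjusted p = 0.00467), and a dimmer probe set rose by 0.55 ± 0.15. GAMT, the last enzyme of creatine synthesis, gave 0.43 ± 0.19 and overlapped. GATM, the first enzyme of that synthesis, read 588, 401 and 66.0 in the calf pools and 96.4 to 136 in the older ones. Its change was -1.07 ± 0.68, and without 1-month pool 3, its lowest, -1.94 ± 0.21 (limma adjusted p = 0.00315). That fit called 3476 of 13204 probe sets, against 2513 in the main fit. CKMT1A was on the array but not tested.

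The purine nucleotide cycle and the handling of AMP went both ways. Of 13 tested genes 1 rose and 3 fell, with a median of -0.35. ADSS1, the muscle form of adenylosuccinate synthase, which turns the IMP made by AMPD1 back towards AMP, read 310, 374 and 211 at 1 month and 993, 1330 and 1259 at 24 months. It rose by 1.97 ± 0.23 (limma adjusted p = 0.00452), while a dimmer probe set gave 0.93 ± 0.33 and did not pass. ADK, adenosine kinase, read 665, 948 and 628 against 314, 335 and 339 and fell by 1.12 ± 0.18. The salvage enzyme HPRT1 fell by 0.85 ± 0.17, and PNP, purine nucleoside phosphorylase, named after its value was seen, fell by 0.82 ± 0.17. ADSS1 kept its call whichever pool was left out. ADK, HPRT1 and PNP each lost theirs without 24-month pool 2, 3 or 4 (limma adjusted p from 0.0505 to 0.0875). Those fits called 526 to 689 of 13204 probe sets, against 2513 in the main fit.

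Among 7 other adenylate and nucleoside kinases 1 fell and none rose (1 higher and 1 lower at an unadjusted p under 0.05), with a median of -0.13. NME2, a nucleoside diphosphate kinase that passes phosphate between nucleotides, read 1621, 1726 and 1611 at 1 month and 685, 763 and 759 at 24 months. It fell by 1.15 ± 0.12 (limma adjusted p = 0.00376) and kept its call whichever pool was left out. NME4, a mitochondrial relative, gave 0.34 ± 0.13 but -0.34 in the second table, and CMPK1, a kinase of pyrimidine monophosphates, gave -0.35 ± 0.18. CMPK1 was called without 1-month pool 3 (-0.52, limma adjusted p = 0.0388), and with another pool left out its limma adjusted p reached 0.387. The fit without 1-month pool 3 called 3476 of 13204 probe sets, against 2513 in the main fit.

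The 5 tested genes of AMP-activated protein kinase, the fuel sensor that AMP switches on, and of its activating complex held no call in either direction by limma, with 3 higher and 1 lower at an unadjusted p under 0.05 and a median of 0.32. PRKAA1, a catalytic subunit, gave 0.77 ± 0.29 and PRKAB1, a scaffold subunit, 0.56 ± 0.19. Both were called without 1-month pool 3, at 1.11 and 0.75 (limma adjusted p = 0.00431 and 0.00973). In that fit 3476 of 13204 probe sets were called, against 2513 in the main fit. With another pool left out their limma adjusted p reached 0.278 and 0.238. STRADA, a partner of the upstream kinase, read 108, 114 and 89.1 at 1 month and 69.9, 76.7 and 68.0 at 24 months, where it was not called present. It was called without 1-month pool 3 (limma adjusted p = 0.0231), and with another pool left out its limma adjusted p reached 0.201.

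Of 8 genes for the exchange of ATP across the mitochondrial membranes 1 rose and none fell, with a median of 0.11. At an unadjusted p under 0.05, 3 were higher and 1 lower. VDAC1, the main outer membrane channel, read 2009, 2098 and 1849 at 1 month and 2646, 2788 and 3062 at 24 months. It rose by 0.51 ± 0.13 (limma adjusted p = 0.0343) and by 1.02 ± 0.18 on a dimmer probe set, but the call on the brighter was lost without each 24-month pool (limma adjusted p from 0.0925 to 0.149). Those fits called 526 to 689 of 13204 probe sets, against 2513 in the main fit. SLC25A3, the phosphate carrier, gave 0.36 ± 0.11 with no overlap between ages (limma adjusted p = 0.0684). SLC25A6, an ADP/ATP carrier, gave -0.99 ± 0.36 (-0.04 and -0.43 on its other probe sets, neither called), and -1.43 ± 0.15 without 1-month pool 2, where it was called (limma adjusted p = 0.0107). With another pool left out its limma adjusted p reached 0.258.

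Of 5 genes whose products spend ATP in the fibre 2 rose and none fell, with a median of 0.26. At an unadjusted p under 0.05, 2 were higher and none lower. MYH7 rose by 1.13 ± 0.12 and ATP2A2, the calcium pump of slow fibres, by 0.72 ± 0.15. On dimmer probe sets ATP2A2 rose by 0.78, 1.04 and 3.89, and that of MYH7 gave 0.53 ± 0.32 and did not pass (limma adjusted p = 0.278). ATP2A1, the pump of fast fibres, gave 0.25 ± 0.12 on its brightest probe set and was not called there, while its dimmer probe set rose by 1.49 ± 0.35 (limma adjusted p = 0.0310). MYH1, a fast myosin heavy chain, gave 0.26 ± 0.14 on its brightest probe set and was not called. A dimmer MYH1 probe set rose by 3.03 ± 0.47 (limma adjusted p = 0.00916), and its others gave 0.92 and 0.12 without a call. The call of the brightest ATP2A2 probe set was lost without each 24-month pool (limma adjusted p from 0.0610 to 0.105) and that of MYH7 was kept. Those fits called 526 to 689 of 13204 probe sets, against 2513 in the main fit.

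Beside MB, the list of oxygen binding and hypoxia response held 7 tested genes, of which 1 rose and none fell, with a median of 0.21. At an unadjusted p under 0.05, 2 were higher and 1 lower. EGLN1, an oxygen-sensing prolyl hydroxylase, read 986, 801 and 968 at 1 month and 1988, 1654 and 1698 at 24 months. It rose by 0.94 ± 0.14 (limma adjusted p = 0.00873), with 0.91 and 1.12 on its other probe sets, and kept its call whichever pool was left out. EGLN3, a related hydroxylase, gave 1.00 ± 0.34 and was called without 1-month pool 3 (1.30, limma adjusted p = 0.0223). In that fit 3476 of 13204 probe sets were called, against 2513 in the main fit. With another pool left out the limma adjusted p of EGLN3 reached 0.239. HIF1A, the transcription factor that these enzymes mark for breakdown, gave -0.69 ± 0.28 and was called without 1-month pool 2 (-1.01, limma adjusted p = 0.0177). For HIF1A the limma adjusted p reached 0.318 with another pool left out.

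Of the called genes around the energy buffer, ADSS1, NME2 and MYH7 kept their calls with the actin ratio, which did not overlap between the ages, as a covariate. SLC6A8, ADK, HPRT1, PNP, VDAC1, ATP2A2 and EGLN1 kept their direction but not their call with it (limma adjusted p from 0.0549 to 0.154). In the second table after quantile normalization VDAC1, ATP2A2 and PNP kept their direction but not their call (limma adjusted p = 0.342, 0.0964 and 0.118), and VDAC1 also lost its call with quantile normalization of the main table (0.36, limma adjusted p = 0.122). Without normalization of the second table MYH7, EGLN1 and HPRT1 lost theirs as well (limma adjusted p = 0.0519, 0.0521 and 0.0542). With the pool number as a block none of these called genes kept its call (limma adjusted p from 0.0603 to 0.275). That fit called 129 of 13204 probe sets.

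**Figure D4:**
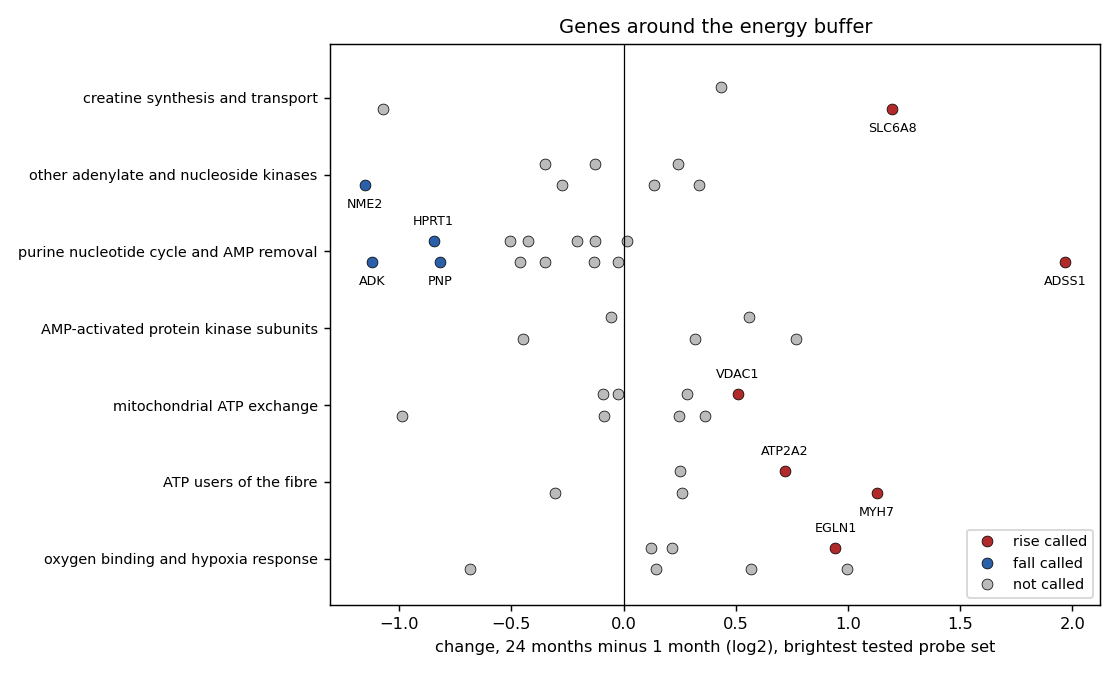
Change from 1 to 24 months (log2) of each tested gene on its brightest probe set, grouped by list, with called rises in red, called falls in blue and the rest in grey. ADSS1 (1.97) and SLC6A8 (1.20) lie farthest to the right, and NME2 (-1.15) and ADK (-1.12) are the called genes farthest to the left.

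Genes with the profile most like each member were found from the root mean square difference of log2 values, each centred on its mean over the 6 arrays, among genes present on all of them. For MB these were ACOT2, a mitochondrial acyl-CoA thioesterase, PLEKHB2 and B4GAT1, at 0.07, 0.08 and 0.09. All of them were low in 1-month pool 3, as MB was, which follows from how they were picked. For AK1 they were PRNP, the prion protein gene, FAM89B and NDUFAB1, the mitochondrial acyl carrier protein (0.04, 0.04 and 0.05). For CKMT2 they were SYAP1, RPP25L and ALG10 (0.03 to 0.04), and for CKM they were TGFBRAP1, MICU2, a regulator of mitochondrial calcium uptake, and PDLIM4 (0.04 to 0.05). Of these 12 genes 3 were again among the nearest after quantile normalization and 0 in the second table, so the likeness belongs to these values of these 6 arrays.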

How the data were processed

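Per the labels, each of 6 arrays measured muscle RNA pooled from 3 bulls, and arrays were grouped by the labelled age. The main table holds linear intensity values that the authors normalized before they deposited them, named for dChip per the file name. Its version and its background and scaling steps are not stated by those sources. It also holds deposited detection calls and, for 1 month, each detection p-value. A second deposited table holds intensity values of the same arrays on an unstated scale. All 7 member probe sets matched RefSeq (ARS-UCD2.0) by gene identifier.

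With limma 3.58.1 in R 4.3.3, log2(intensity + 16) was fitted with age alone; fold changes understate dim genes. Log2 medians differed by 0.03, under the limit of 0.2, so nothing was normalized further. Controls were left out and probe sets present on at least 3 arrays were tested (two-sided, Benjamini-Hochberg). The number of arrays limits the precision. The script was tested on simulated data. Named by rule were all members, the 3 genes of each list with the smallest p, and the 3 most alike genes per member. Among the genes named outside that rule were PNP, MYH1 and single cell type markers. Members and lists were chosen with earlier results of these data known. Alternatives were quantile normalization, median centring, offsets of 1 and 50, other filters, the second table, trended variance, a replicate block, the actin ratio as a covariate and each pool left out.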

Additional observations from a re-analysis of the deposited data

How the results depend on the processing

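Of 17 alternatives per result, MB kept its direction in all and its call in 10, AK1 its direction in all, CKMT2 in 15 and CKM in 14 (brightest probe sets). The second table without normalization and the repeats of the likeness search were chosen after seeing the data. With 1 pool left out the called probe sets numbered 526 to 3476, and 526 to 689 where it was a 24-month pool. Across the fits with 1 pool left out 0 to 2 members were called. The changes there were 0.64 to 1.08 for MB and 0.35 to 0.51 for AK1. The second table gave 1640 calls after quantile normalization and 1169 without, and the actin covariate 996, against 2513. Quantile normalization and the second table, normalized or not, left 0 members called (MB 0.79, 0.91 and 0.90), and the trended, robust variance called 2, adding AK1 (0.42). Over all 13204 probe sets quantile normalization called 2367 and the trended, robust variance 2568, near the 2513 of the main fit. The replicate block, the pool number shared by both ages for numbers 2 and 3 only, left 129 calls and 0 members (MB 0.95). Deviations of equally numbered pools correlated at -0.18 and 0.04, so the numbers were not taken as pairs. Below 0 were CKM (-0.15 and -0.22 in the second table, -0.10 with the covariate) and CKMT2 (-0.14 and -0.36, and -0.086 on its dimmer probe set), while the dimmer CKM probe set turned above 0 (0.061 and 0.018 in the second table, and -0.18 to 0.10 with 1 pool left out). NME4 turned in the second table (-0.34 and -0.38), and with the covariate GATM (2.03), CMPK1 (0.34), PRKAA1 (-0.32), PRKAB1 (-0.075) and EGLN3 (-0.22) turned, none of them called. The cause of these shifts was not tested. The number of pools limits what can be called, and CKB, called present on no array, was not tested for a change.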

Other observations

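Probe sets of the same gene differed for several genes around the energy buffer, and those given here were chosen after their values were seen. For EPAS1, a hypoxia-inducible factor known from vessels, the brighter probe set gave 0.12 and was not called, and the dimmer rose by 1.65 ± 0.21 (limma adjusted p = 0.00557). SLC25A5, an ADP/ATP carrier of dividing cells, gave -0.09 on its brighter probe set and fell by 0.85 ± 0.16 on its dimmer (limma adjusted p = 0.0166). The carrier of mature muscle, SLC25A4, gave 0.25 ± 0.15 and was not called.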
